A study of Rattus norvegicus with 48 samples.

Results

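Transcripts of 4 genes through which astrocytes handle water and glutamate were followed in rat motor cortex around an implanted silicon electrode. The genes were taken by Ensembl ID and make up 4 of the 18997 genes listed in either count table. They are Aqp4 (ENSRNOG00000016043), Slc1a3 (ENSRNOG00000016163), Slc1a2 (ENSRNOG00000005479) and Glul (ENSRNOG00000049560), and all 4 were in both tables and passed the low-count filter in all 20 comparisons. RNA was sequenced from laser-captured areas of brain sections. Near tissue lay within 100 µm of the electrode shank and far tissue about 500 µm from it, at 24 h, 1 week and 6 weeks after implantation.

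All rats were wild-type male Sprague-Dawley rats, and implantation was done at 12 to 14 weeks of age. The implanted rats carried a single-shank silicon probe in motor cortex. They numbered 3 at 24 h, 5 at 1 week and 4 at 6 weeks, and each gave near and far tissue. The control group was 3 naive rats (n2, n3 and n5) with no implant, from which tissue was taken at matching 100 µm and 500 µm positions. Brains were perfused with paraformaldehyde before they were frozen and cut, and naive tissue was collected in a like way. A far sample pooled 4 smaller pieces of tissue. The libraries hold RNA of all cells in the captured area, so fewer astrocytes and less RNA per astrocyte cannot be told apart. Markers of other cell types were not analysed here, because the IDs of the tables could not be paired with symbols, and the cell makeup of each library was therefore not checked.

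Astrocytes surround synapses and blood vessels. Aqp4 encodes aquaporin-4, the main water channel of the brain, which sits mostly in astrocyte end-feet on vessels. Slc1a3 and Slc1a2 encode the glutamate transporters GLAST and GLT-1, which clear glutamate from around synapses by taking it up with sodium. Glul encodes glutamine synthetase, which turns the glutamate taken up into glutamine that neurons use again. Astrocytes around a brain injury become reactive and can form a scar.

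The promoters of Aqp4 and Glul are shown because these 2 genes had the most alike levels across the implanted tissue, among the pairs of the 4. The sequences come from RefSeq on assembly GRCr8, run 5′ to 3′ and span 300 bases around an annotated start. The count tables were made on Rnor_6.0, so these coordinates do not apply to that build. Capitals mark GGGCGG, a motif bound by Sp1, and CCAAT, each on either strand (CCGCCC and ATTGG on the other).

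Aqp4 start 1, chr18:6798793-6799092, minus strand: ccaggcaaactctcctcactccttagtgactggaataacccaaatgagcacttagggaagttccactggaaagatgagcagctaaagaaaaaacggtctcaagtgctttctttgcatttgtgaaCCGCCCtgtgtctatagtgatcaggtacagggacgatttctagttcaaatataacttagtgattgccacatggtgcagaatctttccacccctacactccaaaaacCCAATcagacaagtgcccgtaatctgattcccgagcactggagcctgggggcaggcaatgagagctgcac
Glul start 1, chr13:68519250-68519549, plus strand: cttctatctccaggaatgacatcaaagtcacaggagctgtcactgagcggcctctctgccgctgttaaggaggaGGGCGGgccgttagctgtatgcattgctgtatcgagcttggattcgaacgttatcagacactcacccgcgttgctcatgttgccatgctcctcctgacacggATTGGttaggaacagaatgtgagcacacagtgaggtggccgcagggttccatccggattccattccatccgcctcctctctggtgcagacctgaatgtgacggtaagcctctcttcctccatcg
Glul start 2, chr13:68575816-68576115, plus strand: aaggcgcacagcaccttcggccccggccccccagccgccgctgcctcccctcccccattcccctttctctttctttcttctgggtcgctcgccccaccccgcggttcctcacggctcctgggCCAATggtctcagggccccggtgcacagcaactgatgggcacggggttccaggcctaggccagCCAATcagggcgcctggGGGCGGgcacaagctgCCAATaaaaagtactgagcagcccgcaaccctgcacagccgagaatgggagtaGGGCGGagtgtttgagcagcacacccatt

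The Aqp4 start 1 and Glul start 1 windows each held 1 GGGCGG and 1 CCAAT, and Glul start 2 held 2 and 3. Among 33469 promoters of the same length, 33.1% held GGGCGG and 37.5% held CCAAT. Of the remaining 6 starts listed for the 4 genes, 1 of Slc1a2 held a single GGGCGG, and none of Aqp4 start 2, the other Slc1a2 start and the 3 Slc1a3 starts held either motif. TTCNNNGAA (bound by STAT factors), TGANTCA (AP-1) and TATAAA were in 0 of the 9 windows, against 8.87%, 7.33% and 14.2% of all promoters. These are matches of letters on both strands, with no measure of binding, and no match overlapped another.

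Depth and library quality varied. Near libraries totalled 3363892 to 12709651 counts, far libraries 6173892 to 12844185 and naive libraries 4209485 to 11555077. Between 3062 and 16023 genes were detected per library. Fewer than 6000 were detected in 4 libraries, 3 near and 1 far, from rats 29, 20 and 23. Slc1a3 and Glul had at least 1 count in all 48 libraries, Aqp4 in 46 and Slc1a2 in 47. Levels are in CPM, counts scaled to a common total on 1 scale over all tissues (TMM), summed over the hemispheres of a rat. They are not corrected for gene length, so levels are compared within a gene and not between genes. A fold change is log2 with an approximate standard error, and calls were made where edgeR's quasi-likelihood test gave an adjusted p below 0.05 (Benjamini-Hochberg over all genes of the comparison).

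Of the 4 genes, Aqp4 varied most between groups and Slc1a3 least. The mean level of Aqp4 was 5.47-fold higher in its highest group than in its lowest, against 3.26-fold for Glul, 2.97-fold for Slc1a2 and 1.97-fold for Slc1a3. Over 20 comparisons of the 4 genes, 5 of 80 tests were called, all of them higher in the first-named tissue or time. Over all genes and the same comparisons 0.139% of tests were called. Aqp4 gave 4 of these calls and Glul 1. Slc1a3 and Slc1a2 were called in 0 of 20 comparisons each by edgeR. At an unadjusted p below 0.05 they gave 5 and 2, against 8 for Aqp4 and 5 for Glul, 20 of 80 in all, and over all genes 5.02% of tests did so. The comparisons share rats, so these tests are not independent.

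**Figure D1:**
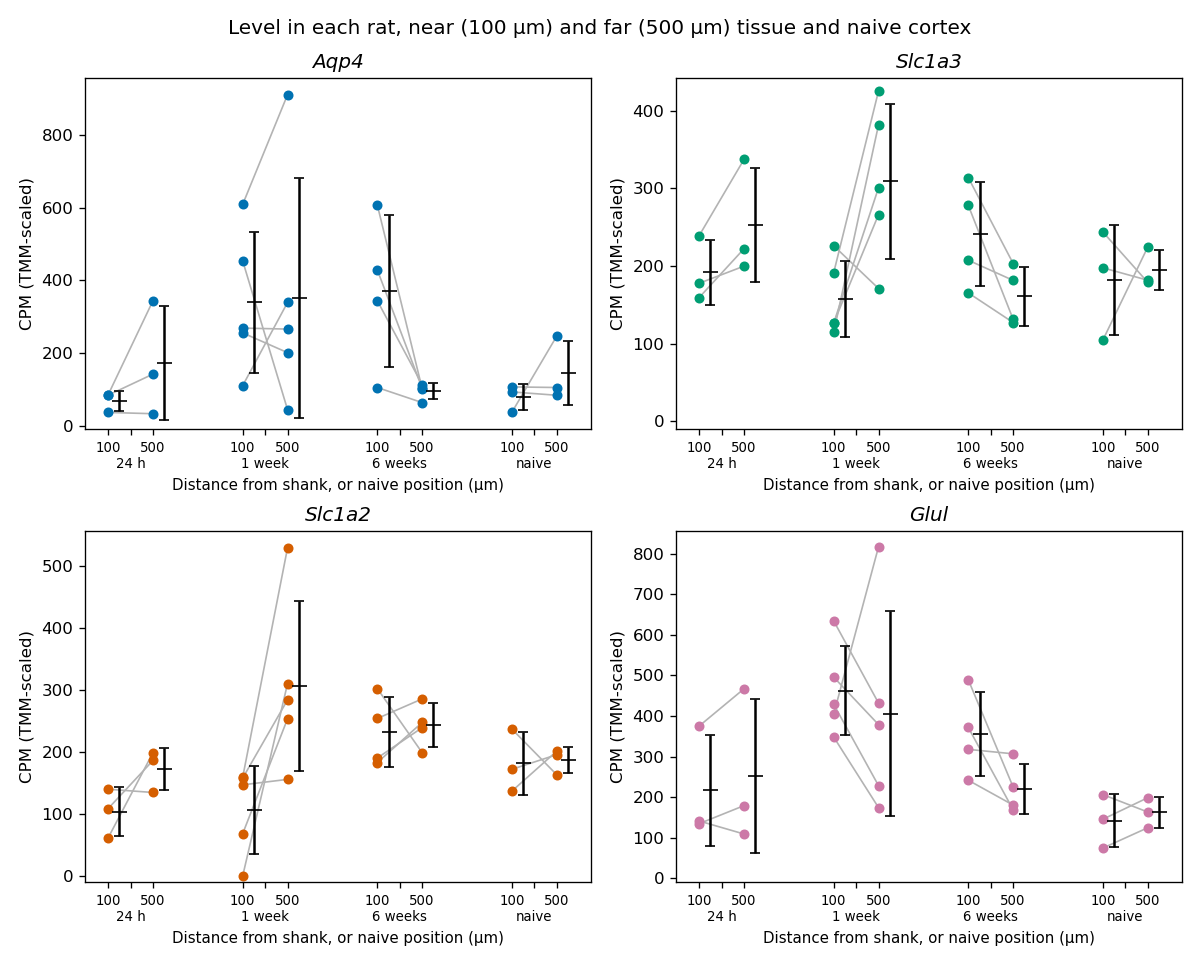
Level of each gene in every rat (points, CPM scaled by TMM) at 100 µm and 500 µm, by time after implantation and in naive cortex, with lines joining the tissues of 1 rat and bars giving the mean ± SD. Near Aqp4 was 36.0 to 84.3 CPM at 24 h and 105 to 608 at 6 weeks, and near Slc1a2 was at 0 in 1 rat at 1 week.

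Aqp4 RNA beside the electrode was lower at 24 h than at 1 and 6 weeks. At 24 h its range overlapped that of naive tissue at 100 µm (36.6 to 106 CPM). Near tissue held 84.3, 36.0 and 83.5 CPM in rats 25, 29 and 30 at 24 h. At 1 week it held 269, 255, 110, 610 and 454 CPM in rats 10, 20, 22, 23 and 9. At 6 weeks it held 344, 608, 429 and 105 CPM in rats 11, 17, 19 and 2. Every near value at 1 and 6 weeks lay above every near value at 24 h, while the 1-week and 6-week ranges overlapped. Of all 14783 genes on this scale, 0.433% lay wholly higher at 1 week than at 24 h and 2.29% at 6 weeks than at 24 h. The near level was 2.29 ± 0.49 higher in log2 at 1 week than at 24 h (edgeR, adjusted p = 0.0320), and 2.41 ± 0.50 higher at 6 weeks than at 24 h (adjusted p = 0.0432). Of all genes tested, 0.0469% were called between 1 week and 24 h and 0.0234% between 6 weeks and 24 h. Between 6 weeks and 1 week, where 0.00781% of genes were called, Aqp4 differed by 0.12 ± 0.41 (adjusted p = 1). For the 1-week change the call was lost on leaving out rat 29, 9, 10, 20, 23 or 11, with adjusted p up to 0.374, and the fold change then ran from 1.97 to 2.51 over all rats left out. For the 6-week change it was lost without rat 29, 9, 10, 20, 11 or 17 (adjusted p up to 0.248, fold changes 2.06 to 2.72). Leaving out the 4 libraries with few genes also ended both calls, at 2.17 (adjusted p = 0.187) and 2.32 (adjusted p = 0.136).

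The far level of Aqp4 followed another course. Rats 25, 29 and 30 had 344, 32.6 and 142 CPM at 24 h. Rats 10, 20, 22, 23 and 9 had 266, 201, 339, 912 and 43.7 CPM at 1 week, the widest spread of any group. Rats 11, 17, 19 and 2 had 113, 101, 102 and 63.3 CPM at 6 weeks, the narrowest spread of the 6 implanted groups for this gene. The far ranges of all 3 times overlapped. The far level differed by 1.03 ± 0.92 between 1 week and 24 h, by -1.89 ± 0.86 between 6 weeks and 1 week and by -0.86 ± 0.92 between 6 weeks and 24 h (edgeR, adjusted p = 1, 1.00 and 1). Without rat 23 the first was 0.32 and the second -1.15, and without rat 25 the first was 2.00 and the third 0.11.

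Within rats, near Aqp4 was above far Aqp4 at 6 weeks. The level was higher near in 4 of 4 rats at 6 weeks, in 3 of 5 at 1 week and in 1 of 3 at 24 h. The share of all genes higher near in 4 of 4 rats was not computed. The 6-week difference was 1.73 ± 0.37 (edgeR with the rat as a block, adjusted p = 0.0107), a fold of 3.33, and 0.0764% of genes were called there. The groups as a whole overlapped slightly, since near tissue of rat 2 (105 CPM) lay below far tissue of rat 11 (113 CPM). At 24 h the difference was -0.89 ± 0.43 (adjusted p = 1), and at 1 week 0.19 ± 0.36 (adjusted p = 0.973). Rat 9 had the largest difference at 1 week, with 454 CPM near and 43.7 CPM far. Without it the 1-week difference turned to -0.44, while the median over all genes moved from -0.66 to -1.04. The share of genes called was 0.132% at 24 h and 0.396% at 1 week.

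The change of the near-far difference of Aqp4 from 24 h to 6 weeks was itself called, at 2.63 ± 0.57 (edgeR, adjusted p = 0.0462), where 0.0208% of genes were called. From 1 week to 6 weeks it was 1.55 ± 0.51 (adjusted p = 1), and 0.0278% of genes were called. Without rat 9 this change passed, at 2.17 (adjusted p = 0.0230), while its median over all genes rose from 0.63 to 1.07. Between 1 week and 24 h the change for Aqp4 was 1.08 ± 0.56 (adjusted p = 1), and 0% of genes were called by edgeR. An unadjusted p below 0.05 was reached there by 258 genes, 1.79% of those tested, and DESeq2 called 417. The 6-week near-far call was lost without rat 30, 11, 17 or 19, with adjusted p up to 0.418 and fold changes of 1.45 to 2.06 over all rats left out. It was also lost without the block (1.94, adjusted p = 0.754), with the 6-week rats fitted alone (1.76, adjusted p = 0.186) and with DESeq2 (1.85, adjusted p = 0.0877). The call for the change from 24 h was lost without rat 25, 30, 11, 17 or 19 (adjusted p up to 1, values of 2.07 to 3.15). Without the block it was 3.30 (adjusted p = 0.837).

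**Figure D2:**
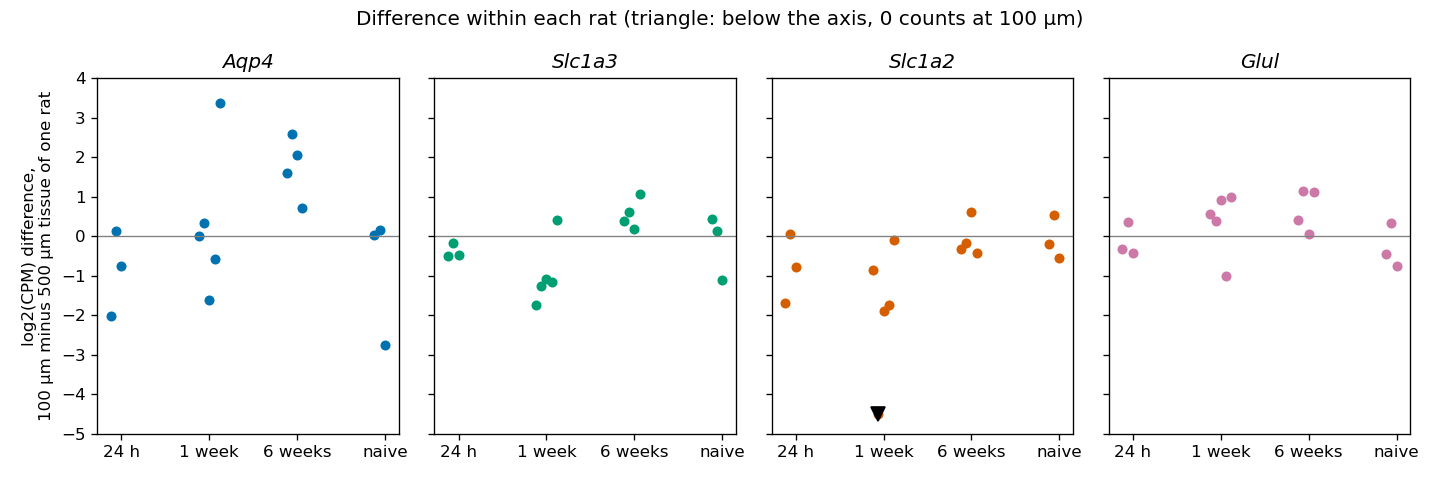
Difference in log2 CPM between 100 µm and 500 µm tissue of the same rat (points), by time after implantation and in naive rats, where a point above 0 means a higher level at 100 µm. At 6 weeks all 4 rats lie above 0 for Aqp4, Slc1a3 and Glul, though rat 19 by only 0.05 for Glul and 0.19 for Slc1a3. The share of all genes above 0 in all 4 rats was not computed. The triangle marks rat 20 at 1 week, with 0 near counts of Slc1a2 and a difference off the axis.

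Slc1a3, the transporter with the steadiest level, was lower near the shank than far from it early on, and above it at 6 weeks, but no edgeR test of it was called. At 24 h near and far tissue held 239 and 337 CPM in rat 25, 178 and 200 in rat 29, and 159 and 222 in rat 30. At 1 week they held 115 and 382 CPM in rat 10, 126 and 301 in rat 20, 127 and 266 in rat 22, 191 and 425 in rat 23, and 226 and 171 in rat 9. At 6 weeks they held 165 and 127 CPM in rat 11, 314 and 203 in rat 17, 207 and 181 in rat 19, and 278 and 131 in rat 2. Near was thus the lower tissue in 3 of 3 rats at 24 h and 4 of 5 at 1 week, and the higher in 4 of 4 at 6 weeks. The shares of all genes with such counts were not computed. Near and far ranges overlapped at each time.

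The near-far difference of Slc1a3 was -0.39 ± 0.40 at 24 h (edgeR, adjusted p = 1), -0.97 ± 0.32 at 1 week (adjusted p = 0.218) and 0.55 ± 0.35 at 6 weeks (adjusted p = 1). At 1 week the median of all genes tested was also negative, at -0.66, and it moved by over 0.1 to -0.47 with DESeq2 size factors. The Slc1a3 value with those factors was -0.74. That median was -0.23 without rat 20, -0.24 without the 4 libraries with few genes and -0.17 without the block, where Slc1a3 was at -0.90, -0.86 and -0.97. The first and second of these settings are not separate checks. The only near library of rat 20 was among the 4, so the second also left rat 20 out of this fit. The near-far difference changed by 1.52 ± 0.48 from 1 week to 6 weeks (adjusted p = 0.873), beside a median change of 0.63 over all genes. DESeq2 called this change (1.40, adjusted p = 0.0203). Between 1 week and 6 weeks far tissue differed by -0.94 ± 0.26 in log2 (adjusted p = 0.900) and near tissue by 0.61 ± 0.41 (adjusted p = 1). DESeq2 also called the far difference (-0.98, adjusted p = 0.0116). In far tissue 0% of genes were called by edgeR in each of the 3 comparisons between times. An unadjusted p below 0.05 was reached there by 546, 661 and 533 genes (4.2%, 5.09% and 4.1% of those tested), and DESeq2 called 196, 129 and 219.

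Slc1a2, the transporter that carries out most glutamate uptake in the forebrain, had its lowest group means near the electrode at 24 h (103 CPM ± 39.5, SD, n = 3) and 1 week (106 ± 70.4, n = 5). Near and far tissue held 61.2 and 199 CPM in rat 25, 140 and 135 in rat 29, and 108 and 186 in rat 30 at 24 h. At 1 week they held 158 and 284 CPM in rat 10, 0 and 310 in rat 20, 68.1 and 253 in rat 22, 159 and 529 in rat 23, and 147 and 156 in rat 9. Near was the lower tissue in 5 of 5 rats at 1 week. The median near-far difference of all genes was also negative there, at -0.66, or -0.23 without rat 20. The share of all genes lower near in 5 of 5 rats was not computed. At 6 weeks near and far tissue held 190 and 239 CPM in rat 11, 254 and 285 in rat 17, 302 and 199 in rat 19, and 183 and 247 in rat 2. Every near value at 6 weeks lay above every near value at 24 h, as in 2.29% of all genes, and above every one at 1 week, as in 1.28%.

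None of these Slc1a2 differences was called by edgeR on all rats. The near-far difference was -0.82 ± 1.34 at 24 h (edgeR, adjusted p = 1), -1.91 ± 1.16 at 1 week (adjusted p = 0.964) and -0.10 ± 1.13 at 6 weeks (adjusted p = 1). Near tissue of rat 20, a single library of 3363892 counts with 5119 genes detected, had 0 counts of Slc1a2. Taking 3 counts (0.601 CPM) as the limit that a count of 0 allows, its level was at least 516-fold lower than in far tissue of the same rat. This limit covers counting error only. Without rat 20 the 1-week difference was -1.14 (adjusted p = 0.472). It passed the threshold without rat 10 (-2.31, adjusted p = 0.0120), rat 2 (-1.91, adjusted p = 0.0234) or rat 11 (-1.91, adjusted p = 0.0310), and with no low-count filter (-1.91, adjusted p = 0.0260), in fits that all hold rat 20. Between times, near Slc1a2 at 6 weeks differed from 24 h by 1.14 ± 1.31 and from 1 week by 1.11 ± 1.11 (adjusted p = 1 for both). In far tissue the 1-week level was 0.82 ± 0.29 above 24 h (adjusted p = 1). The near-far fit and the near fit between times each took in the 3 times with 1 spread for the gene. Both thus held the 0 of rat 20 also where 24 h and 6 weeks were compared. In the far fits, which did not hold it, the ± of Slc1a2 was 0.26 to 0.32. How far the 0 widened the ± at the other times was not tested.

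Glul, which makes glutamine from glutamate, was high near the electrode at 1 week. Near and far tissue held 375 and 467 CPM in rat 25, 141 and 109 in rat 29, and 134 and 179 in rat 30 at 24 h. At 1 week they held 635 and 432 CPM in rat 10, 496 and 379 in rat 20, 429 and 228 in rat 22, 404 and 818 in rat 23, and 348 and 174 in rat 9. At 6 weeks they held 241 and 180 CPM in rat 11, 372 and 169 in rat 17, 318 and 307 in rat 19, and 489 and 225 in rat 2. Near was the higher tissue in 4 of 5 rats at 1 week, in 4 of 4 at 6 weeks and in 1 of 3 at 24 h, with overlapping ranges at each time. The shares of all genes with such counts were not computed. The near-far difference was -0.13 ± 0.33 at 24 h, 0.40 ± 0.26 at 1 week and 0.67 ± 0.29 at 6 weeks (edgeR, adjusted p = 1, 0.964 and 1), beside a median over all genes of -0.08, -0.66 and -0.05. Near Glul was 1.06 ± 0.39 higher at 1 week than at 24 h (adjusted p = 0.753), and 1.75 higher without rat 25 (adjusted p = 0.0656).

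Averaged over the 3 times, with 1.51% of genes called, no gene of the 4 was called near against far by edgeR on all rats. The differences were 0.34 ± 0.22 for Aqp4, 0.31 ± 0.17 for Glul, -0.27 ± 0.21 for Slc1a3 and -0.94 ± 0.70 for Slc1a2 (edgeR, adjusted p = 0.839, 0.714, 0.912 and 0.919). Without rat 10 the Slc1a2 value passed, at -1.08 (adjusted p = 0.0244). The median of all genes in this comparison was -0.39. At 6 weeks the count of the 4 genes called near against far was 1, and at 24 h and 1 week it was 0. An unadjusted p below 0.05 was reached by 1 of the 4 at 24 h, 1 at 1 week and 2 at 6 weeks, beside 3.07%, 6.05% and 2.49% of all genes.

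Naive cortex gave the level without an implant. At 100 µm Aqp4 was 106, 92.7 and 36.6 CPM in rats n2, n3 and n5, and Glul 145, 206 and 74.1. Slc1a3 was 244, 198 and 105 CPM there and Slc1a2 172, 237 and 137. At 500 µm, in the same order of rats, Aqp4 was 105, 83.4 and 247 CPM, Glul 198, 163 and 124, Slc1a3 179, 182 and 224, and Slc1a2 195, 163 and 201. Rat n5 was lower at 100 µm than at 500 µm for all 4 genes and was the lowest of the 3 at 100 µm for each. Between the positions 0% of genes were called by edgeR and 1357 genes by DESeq2, while 600 (5.07%) had an unadjusted p below 0.05 in edgeR. Of the 4 genes, Aqp4 had the largest difference between positions, -0.83 ± 0.47 (adjusted p = 1.00), and it was 0.04 without rat n5.

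Against naive tissue at 100 µm, near Glul was higher at 1 week by 1.73 ± 0.40 in log2, a fold of 3.31 (edgeR, adjusted p = 0.0269), where 0.123% of genes were called. All 5 near values at 1 week, 348 to 635 CPM, lay above the 3 naive values, 74.1 to 206 CPM, as did 0.791% of all genes. At 6 weeks near Glul also lay wholly above naive (241 to 489 CPM), as did 2.33% of all genes, with a difference of 1.34 ± 0.40 (adjusted p = 0.878), and at 24 h it overlapped naive and differed by 0.64 ± 0.42 (adjusted p = 1), or by 0.0083 without rat 25. The 1-week call was lost without rat 10 (adjusted p = 0.118), rat n2 (adjusted p = 0.120) or rat n5 (1.46, adjusted p = 0.390), and with naive positions summed (1.56, adjusted p = 0.0577). The counts of implanted and naive rats were deposited as 2 tables whose sample numbers form different series, so the implant and any other difference between these sets of libraries cannot be told apart.

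Near Aqp4 was 2.12 ± 0.51 above naive at 1 week (edgeR, adjusted p = 0.0784) and 2.24 ± 0.53 above it at 6 weeks (adjusted p = 0.147). At 1 week the ranges narrowly missed overlap, with rat 22 at 110 CPM just above rat n2 at 106. Of all genes, 0.791% lay wholly above naive there. At 6 weeks rat 2 at 105 CPM lay just below rat n2. Both differences from naive passed with DESeq2 size factors in edgeR, at 2.38 (adjusted p = 0.0115) and 2.40 (adjusted p = 0.0386). Both also passed without rat n2, at 2.45 (adjusted p = 0.0124) and 2.57 (adjusted p = 0.00862), and without rat n3, 2, 22, 25, 29 or 30, while the 1-week value alone passed without rat 17. At 24 h near Aqp4 was -0.19 ± 0.52 from naive (adjusted p = 1). The share of genes called near against naive was 0.0578% at 24 h and 0.0434% at 6 weeks. Near Slc1a3 differed from naive by 0.09 ± 0.49, -0.20 ± 0.43 and 0.41 ± 0.46 at 24 h, 1 week and 6 weeks, and near Slc1a2 by -0.81 ± 1.24, -0.76 ± 1.08 and 0.36 ± 1.16 (adjusted p = 1 for each). The medians over all genes were -0.17, -0.30 and -0.17. The 3 times shared 1 fit, which held the 0 counts of Slc1a2 in near tissue of rat 20 at 1 week.

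In far tissue none of the 4 genes was called against naive at 500 µm. The share of genes called was 0.00748% at 24 h, 0.127% at 1 week and 0.0598% at 6 weeks. At 1 week all 4 genes had positive values, 1.28 ± 0.53 for Glul, 1.23 ± 0.89 for Aqp4, 0.67 ± 0.29 for Slc1a2 and 0.62 ± 0.28 for Slc1a3 (edgeR, adjusted p = 0.506, 0.804, 0.483 and 0.508), beside a median of 0 over all genes. The Aqp4 value was 0.53 without rat 23 and 1.86 without rat n5. At 6 weeks the values were 0.40 ± 0.54 for Glul, -0.66 ± 0.88 for Aqp4, 0.34 ± 0.30 for Slc1a2 and -0.32 ± 0.29 for Slc1a3, with Aqp4 at -0.029 without rat n5. At 24 h they were 0.59 ± 0.57, 0.20 ± 0.94, -0.15 ± 0.32 and 0.33 ± 0.31 in that order of genes. The near and far comparisons with naive tissue used different naive samples, of the same 3 rats.

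**Figure D3:**
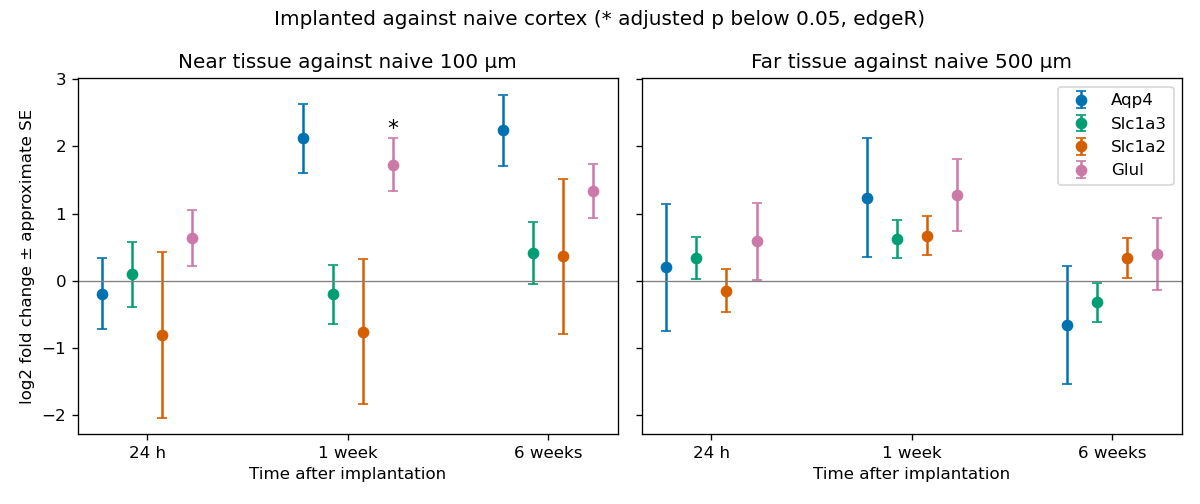
Log2 fold change of near tissue against naive tissue at 100 µm (left) and of far tissue against naive tissue at 500 µm (right), with bars giving the approximate standard error and the asterisk an adjusted p below 0.05. Near Aqp4 stands at 2.12 and 2.24 at 1 and 6 weeks, and near Glul at 1.73 at 1 week is the value with the asterisk.

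In order of mean level, Aqp4 was highest in near tissue at 6 weeks (372 CPM ± 209, SD, n = 4), far tissue at 1 week (352 ± 331, n = 5) and near tissue at 1 week (340 ± 194, n = 5), means that did not differ beyond their spread. It was lowest in far tissue at 6 weeks (94.9 ± 21.7, n = 4), naive tissue at 100 µm (78.6 ± 37.0, n = 3) and near tissue at 24 h (67.9 ± 27.6, n = 3). Glul ranked highest near at 1 week (462 ± 110.0), far at 1 week (406 ± 253) and near at 6 weeks (355 ± 104), and lowest in the naive tissues (162 ± 37.1 at 500 µm and 142 ± 66.0 at 100 µm). Slc1a2 ranked highest far at 1 week (306 ± 137) and far at 6 weeks (243 ± 35.6). Slc1a3 also ranked highest far at 1 week (309 ± 99.8), and its lowest mean, near at 1 week (157 ± 49.0), came from the same rats. Neighbouring means in all 4 orders differed by less than the larger of their SDs.

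The ratio of 2 genes within a tissue does not depend on the scaling between libraries, and it is described here without a test. In 11 of 12 rats Aqp4 relative to Slc1a2 was greater in near tissue, by 0.09 in rat 29 and 0.016 in rat 30. The mean near-far difference of this log2 ratio was -0.08 ± 0.22 (SD, n = 3) at 24 h, 3.54 ± 4.85 (n = 5) at 1 week and 1.83 ± 0.69 (n = 4) at 6 weeks. Rat 20, with its 0 counts of Slc1a2, gave a 1-week value of 11.9, and the other 1-week rats gave 0.27 to 3.46. Slc1a3 relative to Glul was lower near than far in 11 of 12 rats, with mean differences of -0.26 ± 0.25 at 24 h, -1.33 ± 0.92 at 1 week and -0.11 ± 0.28 at 6 weeks. The difference was as small as -0.041 in rat 2, -0.044 in rat 11 and -0.067 in rat 30. Slc1a2 relative to Glul was also lower near in 11 of 12 rats. Of the other ratios, Slc1a3 to Slc1a2 was higher near in 9 of 12 rats, Aqp4 to Slc1a3 in 8 and Aqp4 to Glul in 5. Ratios of other genes were not computed. A change of ratio shows that the genes moved unequally and not which of them moved.

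**Figure D4:**
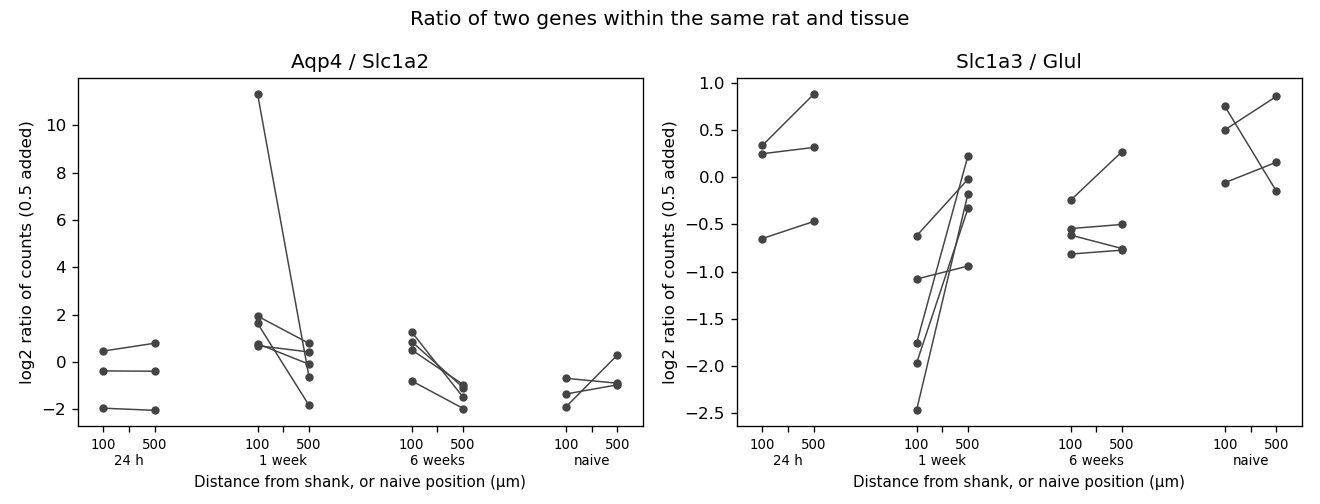
Log2 ratio of counts (0.5 added to each) of Aqp4 to Slc1a2 and of Slc1a3 to Glul in each rat-by-position sum (points), with lines joining the tissues of 1 rat. The first ratio was higher and the second lower at 100 µm than at 500 µm in 11 of 12 implanted rats.

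In far tissue at 24 h and 1 week, but not at 6 weeks, the same rats were extreme for all 4 genes. At 1 week rat 23 was the highest and rat 9 the lowest of 5 in far tissue for all 4 genes, and at 24 h rat 25 was the highest and rat 29 the lowest of 3 for all 4. The share of all genes with these extremes was not computed. The left far libraries of rats 23 and 29 had 5089 and 6095 genes detected. In near tissue at 1 week the genes had different extremes, with rat 9 the highest for Slc1a3 and the lowest for Glul. Across the 24 near and far sums, Aqp4 and Glul had the most alike pattern of any pair of the 4 (Pearson r = 0.68 between log2 CPM). Among 1759 genes of sufficient level, Aqp4 was the gene closest to Glul, and Glul ranked 4 for Aqp4. Slc1a2 had r = 0.40 with Slc1a3, 0.06 with Aqp4 and -0.14 with Glul. Of the other genes, those closest to the 4 on average were ENSRNOG00000033261 (mean r = 0.53) and ENSRNOG00000004613 (mean r = 0.52). Every r of Slc1a2, and each mean r, took in near tissue of rat 20 at 1 week, with its 0 counts of Slc1a2. The log2 CPM of that point is set by the prior count of 2, and r without it was not computed. The points share rats, libraries and scaling, so these correlations are descriptions.

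The hemispheres of 1 rat gave a further view of spread, from 12 pairs of libraries of implanted rats and 6 of naive rats. Differences were taken in log2 after 1 CPM was added to each library. In implanted rats the median difference between hemispheres, in either direction, was 1.38 for Aqp4, 0.66 for Slc1a3, 0.42 for Glul and 0.32 for Slc1a2. In naive rats it was 0.60, 0.46, 0.68 and 0.75. Aqp4, the gene with the most calls, was also the least even between hemispheres of the implanted rats. Aqp4 had 0 counts in 2 libraries of rat 29 at 24 h. One was right near tissue, the library with the fewest genes detected (3062), where Glul had 5 counts while Slc1a3 had 1133 and Slc1a2 742. The other was left far tissue (6095 genes detected), where Glul had 848 counts. The near hemispheres of rat 29 therefore held 53.1 and 0 CPM of Aqp4, and the far hemispheres 0 and 58.4. Naive rat n2 showed a like gap for Slc1a2 at 500 µm, with 9.00 CPM in the left and 336 CPM in the right hemisphere.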

How the data were processed

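The deposited values are read counts per gene and library, which the authors made from laser-captured, fixed tissue with a stranded library kit, per the labels' protocols. The tools listed in the submitters' processing notes are STAR 2.6.1b, RSEM 1.3.1, cutadapt 2.3, DESeq2 and FastQC 0.11.8, with build Rnor_6.0, and the notes assign them no roles. Deposited counts were whole numbers, taken as they stand, and whether the authors rounded them is unknown. Symbols of the 4 genes come with the IDs that define the set. The reference table (GRCr8) lists symbols with no Ensembl IDs to pair them by, so a list of other astrocyte genes and the cell type markers were not analysed here. The 4 genes, the lists and the alternatives were chosen with earlier results of these data known.

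The rat was the replicate. Its libraries at 1 distance were summed, giving 24 sums of 12 implanted rats and 6 of 3 naive rats. Fits were made in R 4.3.3 with edgeR 4.0.16 (filterByExpr with a minimum count of 10, TMM, estimateDisp and glmQLFit with robust estimation, quasi-likelihood test), and Benjamini-Hochberg adjustment ran over all genes of a comparison. Near and far tissue were fitted together over the 3 times with the rat as a block, because both tissues come from the same animal. The deviations of a rat's near and far tissue from their group means correlated at 0.00566 to 0.0883 across genes, above 0.1 in 0 of 12 rats. Other comparisons had no block and shared 1 spread over the groups of their fit. Comparisons with naive tissue used the 15936 genes in both tables, of 17317 and 17616. The ± of a fold change is its size divided by the root of the test's F and is not the spread between rats. CPM used TMM over all 30 sums. Library-level CPM was scaled separately over 48 libraries.

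The genes to name beside the 4 were those with the highest mean correlation to them across 24 sums (prior count 2, mean log2 CPM of at least 6). At most 2 IDs are named. Each of 120 pairs of libraries within groups differed by more than sampling noise, with a chi-square of at least 55.58 per degree of freedom. Alternatives were DESeq2 size factors, the DESeq2 1.42.0 Wald test, no filter, the 2 most abundant genes left out, each rat left out, omission of the 4 libraries below 6000 genes, no block, fewer groups in the fit, unsummed libraries and summed naive positions.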

Additional observations from a re-analysis of the deposited data

Results flagged for a closer look

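Slc1a2 in near tissue of rat 20 at 1 week stood far from the other rats, with a near minus far difference of -10.84 in log2 CPM. Its near tissue had 0 counts, so this value is set by the prior count of 2 and is no measured size. With 3 counts as the limit, near was at least 516-fold lower than far. That limit covers counting error only, and libraries differed by more than counting error. It is therefore no lower bound on the difference in the tissue. The near tissue was a single library with 5119 genes detected. The other 4 rats lay between -1.89 and -0.08. This was 1 of 24 sets of rats examined for a value far from the rest, and chance marks about 1 in 20 such sets.

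The near-far difference of Aqp4 was greater by 2.63 in log2 at 6 weeks than at 24 h by a test of the difference itself (edgeR interaction term, adjusted p = 0.0462, and 0.00481 to 1 over the alternatives run). It was positive in 4 of 4 rats at 6 weeks and in 1 of 3 at 24 h, and the share of all genes with such counts was not computed.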

How the results depend on the processing

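Of 1540 values computed under the alternatives for the 80 results, 1434 kept both their direction and their side of the threshold, and 38 had the opposite sign. The 5 called results kept their direction under every alternative run for them, and each lost its call under some. The cause was not tested.

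With DESeq2 size factors in edgeR, Aqp4 against naive passed at 1 week (2.38) and 6 weeks (2.40), and the change of its near-far difference from 24 h to 6 weeks did not (2.56). Signs turned for near Aqp4 against naive at 24 h (0.0063), near-far Glul at 24 h (0.060), near-far Slc1a2 at 6 weeks (0.012) and near Slc1a3 against naive at 1 week (0.073). The DESeq2 Wald test gave the same turns of sign (0.0063, 0.060, 0.012 and 0.073) and calls (2.38 and 2.41). It also called Slc1a3 between 6 weeks and 1 week in far tissue (-0.98) and in the near-far difference (1.40), and lost the near-far Aqp4 results at 6 weeks (1.85) and against 24 h (2.56). With no low-count filter, Aqp4 against naive passed at 1 week (2.15) and 6 weeks (2.27), near-far Slc1a2 passed at 1 week (-1.91), and the Aqp4 change from 24 h did not pass (2.62). With no replicate block, no near-far Aqp4 call held (1.94 at 6 weeks and 3.30 for the change from 24 h), and the 1-week value was -0.050. With libraries not summed these calls were also lost (2.00 and 2.99), and Slc1a2 at 6 weeks was 0.047. Near Aqp4 lost its calls against 24 h with only the groups compared in the fit (2.31 at 1 week and 2.46 at 6 weeks), as did Glul against naive at 1 week (1.76), and the 6-week near-far Aqp4 value with that time alone was 1.76. Summing the naive positions ended the Glul call (1.56) and turned Slc1a3 against naive at 24 h (-0.021). Without the 4 libraries with few genes the near Aqp4 calls against 24 h were lost (2.17 at 1 week and 2.32 at 6 weeks), and signs turned for near-far Aqp4 at 1 week (-0.059), near-far Glul at 24 h (0.025) and near Slc1a3 against naive at 24 h (-0.084).

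Leaving out 1 rat at a time, the values of Aqp4 ran over -0.77 to 0.83 for far tissue vs naive, 24 h, -1.35 to 0.11 for far tissue, 6 weeks vs 24 h, -1.40 to 0.043 for naive 100 µm vs 500 µm and 1.79 to 2.45 for near tissue vs naive, 1 week. Further Aqp4 ranges were -0.48 to 0.16 for near tissue vs naive, 24 h, 1.90 to 2.57 for near tissue vs naive, 6 weeks, 1.97 to 2.51 for near tissue, 1 week vs 24 h and -0.23 to 0.44 for near tissue, 6 weeks vs 1 week. Further Aqp4 ranges were 2.06 to 2.72 for near tissue, 6 weeks vs 24 h, -0.44 to 0.66 for near vs far, 1 week, 1.45 to 2.06 for near vs far, 6 weeks and 1.09 to 2.17 for near-far difference, 6 weeks vs 1 week. For the near-far difference of Aqp4, 6 weeks vs 24 h, the range was 2.07 to 3.15. Far Aqp4 with no turn of sign ran over 0.32 to 2.00 for 1 week vs 24 h, -2.17 to -1.15 for 6 weeks vs 1 week, 0.53 to 1.86 against naive at 1 week and -0.94 to -0.029 against naive at 6 weeks. With 1 rat left out, Glul ran over -0.20 to 0.97 for far tissue vs naive, 24 h, -0.54 to 0.60 for far tissue, 6 weeks vs 24 h, 1.46 to 2.11 for near tissue vs naive, 1 week and -0.37 to 0.026 for near vs far, 24 h. Near Glul ran over 0.80 to 1.75 for 1 week vs 24 h and 0.0083 to 1.04 against naive at 24 h. A further Glul range was -0.031 to 0.49 for near-far difference, 6 weeks vs 1 week. For Slc1a2 the ranges were -0.25 to 0.018 for far tissue vs naive, 24 h, -0.41 to 0.13 for naive 100 µm vs 500 µm, -0.23 to 0.35 for near tissue, 1 week vs 24 h and -2.49 to -1.14 for near vs far, 1 week. Further Slc1a2 ranges were -0.32 to 0.0064 for near vs far, 6 weeks and -1.14 to -0.69 for near vs far, mean of 3 times. For Slc1a3 they were -0.59 to 0.24 for naive 100 µm vs 500 µm, -0.44 to 0.11 for near tissue vs naive, 1 week and -0.12 to 0.43 for near tissue vs naive, 24 h.

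Groups held 3 to 5 rats, and Aqp4 differed by a median of 1.38 in log2 CPM (1 CPM added to each) between hemispheres of implanted rats. Slc1a2 had 0 counts in near tissue of rat 20, in the library with the lowest total (3363892 counts), which held 1275 counts of Aqp4, 631 of Slc1a3 and 2475 of Glul. Aqp4 had 0 counts in a near library of rat 29 with 8513457 counts.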
